A study of Mus musculus with 11 samples.

Results

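ILC lineage transcription factors are the DNA-binding proteins that direct lymphoid progenitors towards innate lymphoid cells (ILC), lymphocytes without an antigen receptor on the cell surface. Described here are Gata3, Rora, Bcl11b, Zbtb16, Gfi1, Nfil3 and Ets1, 7 genes chosen by name for this known role out of 57186 gene entries. The cells were sorted from mice of 14 days that carried a Cre recombinase driven by Cd3g and a Rosa26 reporter whose stop sequence Cre removes ahead of ZsGreen. Bulk RNA sequencing covered thymic DN3 cells (n = 3), immature thymocytes that are rearranging the T cell receptor beta gene, ZsGreen-positive lung ILC2 (n = 3) and ZsGreen-negative lung ILC2 (n = 5). All 3 groups carried both alleles and were untreated. Because Cd3g drives the Cre, ZsGreen marks a cell that transcribed Cd3g or descends from one that did, and says nothing of when.

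GATA3 is a zinc finger factor needed for ILC progenitors, for ILC2 and for early T cells alike. BCL11B, a zinc finger repressor, fixes T cell commitment in the thymus and is also kept on in ILC2, while GFI1, a repressor, and ETS1, the founding ETS factor, serve both lineages. RORα is the nuclear receptor made by Rora, PLZF the BTB zinc finger factor made by Zbtb16, and NFIL3 a basic leucine zipper factor. They are grouped here by their roles on the ILC side, which are not their only roles. RORα is needed for ILC2, PLZF marks a transient ILC precursor and NFIL3 acts at the earliest ILC progenitors. The first 4 genes are called shared below and the other 3 ILC-sided, by these textbook roles and not by their levels. The sides were set with earlier results of these data known, so they are not an independent forecast of the levels.

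Library totals were 5951494 to 7745062 counts in DN3, 5762491 to 17627469 in ZsGreen-positive and 4495260 to 14424313 in ZsGreen-negative libraries. Most markers followed the labels, out of 12 listed for each cell type. Il1rl1, Il13, Areg, Klrg1 and Ccr8, genes of ILC2, had 0 counts in every DN3 library. Rag2 and Ptcra, genes of DN3 cells, had 0 counts in every lung library. Levels below are CPM (counts scaled to a common library total) after TMM scaling over all 11 libraries. Calls are edgeR quasi-likelihood tests with a BH-adjusted p under 0.05. All 12 ILC2 markers were called lower in DN3 against each lung group, though Il17rb still averaged 171 CPM in DN3. Of the 12 DN3 markers, 11 were called higher and 1 lower in DN3 against ZsGreen-positive ILC2. Against ZsGreen-negative ILC2 10 were called higher and 1 lower, and Il2ra was not called. The lower one was Hes1 in both comparisons. All DN3 libraries carry a batch date of their own in the labels, which means that batch and tissue cannot be told apart wherever DN3 is compared. Both DN3 comparisons use the same 3 DN3 libraries.

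All 7 factors were called different between DN3 and each lung group, and in neither comparison did the libraries of the groups overlap. Calls were common there: 75.1% of the 15132 genes tested were called against ZsGreen-positive ILC2 and 76.7% against ZsGreen-negative ILC2, and groups did not overlap for 78.2% and 73.9% of genes, so a called member is close to the background. The sizes set the members apart from each other. In DN3, Bcl11b was higher and the other 6 factors were lower (34.8% of all genes were called higher and 40.3% lower in DN3 against ZsGreen-positive ILC2, and 35.5% and 41.2% against ZsGreen-negative ILC2). The median log2 fold change of the 7 in DN3 against ZsGreen-positive ILC2 was -3.45, beside -0.08 over all genes tested, and against ZsGreen-negative ILC2 it was -3.59, beside -0.10. The 4 shared factors had log2 fold changes between -3.59 and 0.92 in DN3 against ZsGreen-negative ILC2, and the 3 ILC-sided factors between -9.66 and -5.80. In bulk libraries, fewer cells with a transcript and less of it per cell cannot be told apart.

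**Figure D1:**
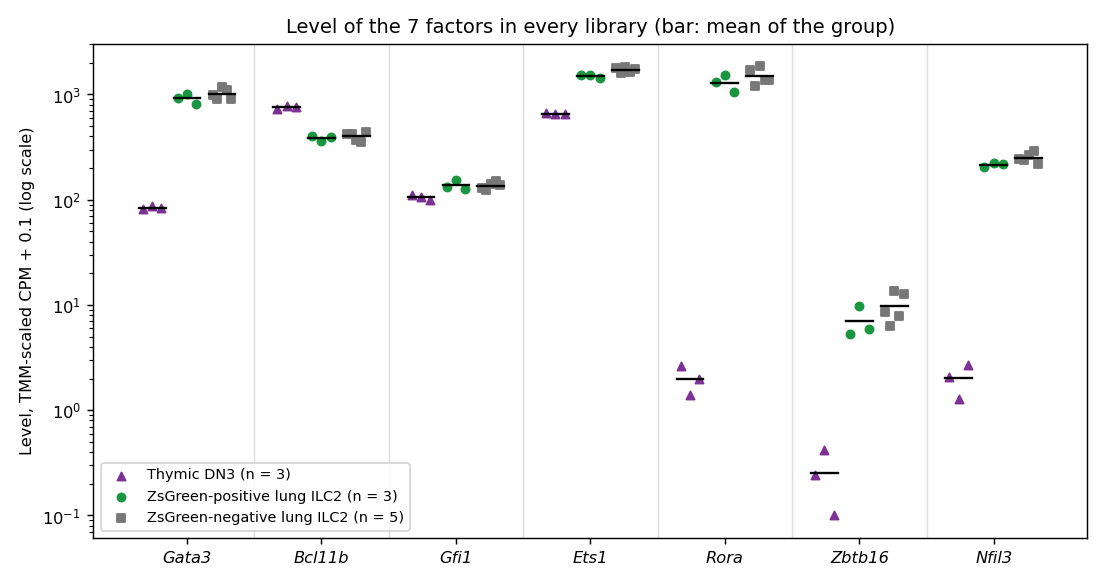
Level of each factor in every library, as TMM-scaled CPM + 0.1 on a log axis, with thymic DN3, ZsGreen-positive and ZsGreen-negative lung ILC2 from left to right for each gene and the group mean as a bar. Bcl11b is the only factor whose DN3 libraries lie above the lung libraries, and Rora, Zbtb16 and Nfil3 in DN3 lie far below every lung library.

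Among the shared factors, Gata3 (ENSMUSG00000015619) showed the widest gap. It stood at 81.9, 86.4 and 83.8 CPM in the DN3 libraries, at 923, 1006 and 820 CPM in the ZsGreen-positive libraries and at 989, 908, 1168, 1111 and 898 CPM in the ZsGreen-negative libraries. Every DN3 library was far under the lowest lung library, and the lung groups overlapped. Gata3 was 10.9-fold lower in DN3 than in ZsGreen-positive ILC2 (log2 fold change -3.45 ± 0.12 SE, edgeR BH-adjusted p = 1.10e-16) and 12.1-fold lower than in ZsGreen-negative ILC2 (-3.59 ± 0.12, edgeR BH-adjusted p = 2.29e-17). It was nonetheless readily detected in DN3, with 583 to 806 counts per library.

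Bcl11b (ENSMUSG00000048251) ran the other way. Its level was 735, 782 and 753 CPM in DN3, against 402, 359 and 398 CPM in ZsGreen-positive and 420, 417, 366, 351 and 442 CPM in ZsGreen-negative libraries. The lowest DN3 library lay well above the highest lung library, while lung ILC2 of both kinds kept a substantial Bcl11b level. Bcl11b rose 1.96-fold in DN3 relative to ZsGreen-positive ILC2 (log2 fold change 0.97 ± 0.10 SE, edgeR BH-adjusted p = 1.12e-08) and 1.89-fold relative to ZsGreen-negative ILC2 (0.92 ± 0.09, edgeR BH-adjusted p = 2.42e-09). The size of that difference stood at the 49.8th percentile of all genes tested in DN3 against ZsGreen-positive ILC2.

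Gfi1 (ENSMUSG00000029275) was the factor most alike in thymus and lung. It gave 110, 107 and 98.3 CPM in DN3, 133, 154 and 125 CPM in ZsGreen-positive and 130, 123, 141, 149 and 137 CPM in ZsGreen-negative libraries. The DN3 libraries lay just under the lowest lung library. The log2 fold change was -0.39 ± 0.10 in DN3 against ZsGreen-positive ILC2 (edgeR BH-adjusted p = 0.00117) and -0.37 ± 0.09 against ZsGreen-negative ILC2 (edgeR BH-adjusted p = 0.000638).

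Ets1 (ENSMUSG00000032035) had 674, 646 and 656 CPM in DN3, 1518, 1522 and 1422 CPM in ZsGreen-positive and 1784, 1605, 1828, 1639 and 1738 CPM in ZsGreen-negative libraries. The 3 groups did not overlap, in the order DN3, ZsGreen-positive, ZsGreen-negative from low to high. Ets1 was 2.26-fold lower in DN3 than in ZsGreen-positive ILC2 (log2 fold change -1.17 ± 0.09, edgeR BH-adjusted p = 2.14e-10) and 2.61-fold lower than in ZsGreen-negative ILC2 (-1.38 ± 0.09, edgeR BH-adjusted p = 3.15e-12). The step between the lung groups was not called, as given below.

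The ILC-sided factors were nearly absent from DN3. Rora (ENSMUSG00000032238) had 2.53, 1.29 and 1.86 CPM in DN3, resting on 18, 12 and 16 counts, against 1306, 1521 and 1044 CPM in ZsGreen-positive and 1709, 1214, 1847, 1362 and 1383 CPM in ZsGreen-negative libraries. No DN3 library came within 2 orders of magnitude of a lung library. The log2 fold change was -9.44 ± 0.26 against ZsGreen-positive ILC2 (edgeR BH-adjusted p = 3.10e-16) and -9.66 ± 0.25 against ZsGreen-negative ILC2 (edgeR BH-adjusted p = 1.52e-16), or 693-fold and 808-fold lower in DN3. Pooled over DN3, the 46 counts stood for 1.84 CPM with an exact Poisson 95% interval of 1.35 to 2.45 CPM, which covers counting error only.

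Nfil3 (ENSMUSG00000056749) followed the same course. Its level was 1.97, 1.18 and 2.56 CPM in DN3, 205, 226 and 217 CPM in ZsGreen-positive and 244, 240, 265, 288 and 217 CPM in ZsGreen-negative libraries. Again DN3 stood far under the lung, and the lung groups touched only at the ZsGreen-negative library of the 2025 batch. Nfil3 was 114-fold lower in DN3 than in ZsGreen-positive ILC2 (log2 fold change -6.83 ± 0.17, edgeR BH-adjusted p = 2.96e-19) and 132-fold lower than in ZsGreen-negative ILC2 (-7.04 ± 0.17, edgeR BH-adjusted p = 8.53e-20).

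Zbtb16 (ENSMUSG00000066687) was low throughout. It gave 0.141, 0.321 and 0 CPM in DN3, that is 1, 3 and 0 counts, against 5.20, 9.76 and 5.83 CPM in ZsGreen-positive and 8.42, 6.24, 13.6, 7.76 and 12.5 CPM in ZsGreen-negative libraries. The DN3 libraries lay under every lung library, but 4 counts in all gave only 0.160 CPM with an exact Poisson 95% interval of 0.0435 to 0.409. The fitted log2 fold change was -5.28 ± 0.56 in DN3 against ZsGreen-positive ILC2 (edgeR BH-adjusted p = 2.28e-08) and -5.80 ± 0.52 against ZsGreen-negative ILC2 (edgeR BH-adjusted p = 1.26e-09). Single DN3 libraries moved this size: without DN3 library 2, which held 3 of the 4 counts, the log2 fold changes were -6.41 and -6.94, and without DN3 library 3 they were -4.71 and -5.24.

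**Figure D2:**
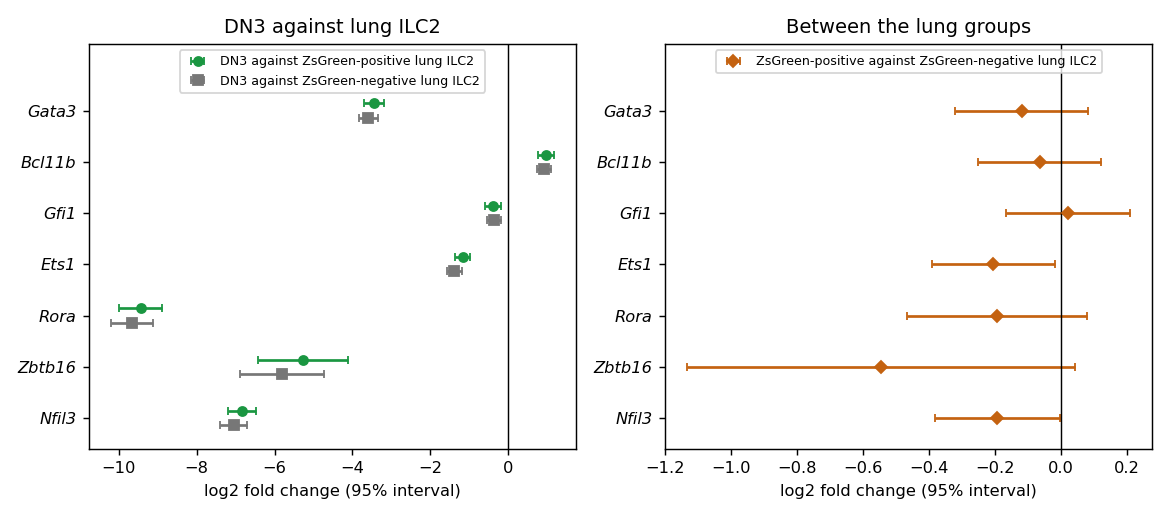
Log2 fold change of each factor with its 95% interval from the edgeR fit, left for DN3 against ZsGreen-positive and ZsGreen-negative lung ILC2, right for ZsGreen-positive against ZsGreen-negative lung ILC2 on an axis of its own. In DN3, Rora lies near -9.44 and -9.66 and Bcl11b alone is above 0, and between the lung groups the estimates run from -0.55 for Zbtb16 to 0.02 for Gfi1.

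Per kilobase of exon, the order of the factors differed between thymus and lung. The length takes in all annotated exons of a gene, whichever were expressed, so levels of different genes compare only approximately. All 3 DN3 libraries ran Bcl11b, Ets1, Gfi1, Gata3, Nfil3, Rora and Zbtb16 from high to low. All 8 lung libraries began with Gata3 and Ets1 and ended with Zbtb16. Between them, Rora and Nfil3 changed places from library to library, and so did Bcl11b and Gfi1: Nfil3 stood above Rora in 2 of 3 ZsGreen-positive and 3 of 5 ZsGreen-negative libraries. Neither pair kept 1 order over the lung libraries.

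Ratios between factors differed between DN3 and the lung. The ratio of Bcl11b to Gata3 per kilobase had a median of 4.41 over the DN3 libraries, 0.175 to 0.238 over the ZsGreen-positive libraries and 0.154 to 0.241 over the ZsGreen-negative libraries. The lung ranges overlapped and lay far under DN3. Gfi1 per kilobase was likewise above Gata3 in DN3 (median ratio 1.54) and below it in ZsGreen-positive (0.191) and ZsGreen-negative ILC2 (0.168). Ratios with an ILC-sided factor lay further apart: Rora to Gata3 had medians of 0.00677 in DN3, 0.431 in ZsGreen-positive and 0.469 in ZsGreen-negative ILC2, and Nfil3 to Gfi1 had medians of 0.0282, 2.42 and 2.96 in the same groups.

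Summed over the 7 genes, the level per kilobase was 226 ± 2.46 CPM in DN3, 703 ± 52.1 CPM in ZsGreen-positive and 790 ± 60.6 CPM in ZsGreen-negative ILC2 (SD, n = 3, 3 and 5). Bcl11b made up 41.2% ± 1.10 of that sum in DN3, 6.81% ± 0.86 in ZsGreen-positive and 6.28% ± 1.00 in ZsGreen-negative ILC2. Gata3 made up 9.34% ± 0.21 in DN3, 32.7% ± 0.92 in ZsGreen-positive and 32.2% ± 1.76 in ZsGreen-negative ILC2. Ets1 made up 34.4% ± 0.91 in DN3, 25% ± 1.06 in ZsGreen-positive and 25.7% ± 1.46 in ZsGreen-negative ILC2, and its DN3 libraries lay above all lung libraries. Rora and Nfil3 together with Zbtb16 were under 1% of the sum in DN3 and 29.3% and 30.4% of it in ZsGreen-positive and ZsGreen-negative ILC2.

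**Figure D3:**
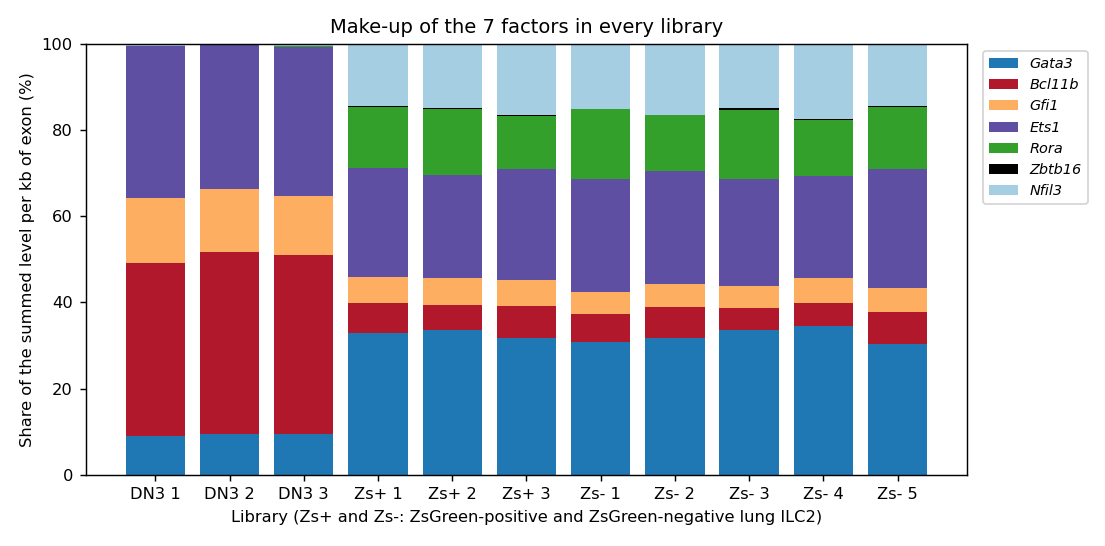
Share of each factor in the summed level per kilobase of exon of the 7 factors, as stacked bars in percent for every library, with DN3 left, then ZsGreen-positive (Zs+) and ZsGreen-negative (Zs-) lung ILC2. Bcl11b averages 41.2% in DN3 and under 7% in both lung groups, and the 8 lung bars look alike.

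Set among 14836 genes ranked by level per kilobase, Gata3 stood at the 85.4th percentile in DN3, the 98.8th in ZsGreen-positive and the 98.8th in ZsGreen-negative ILC2. Bcl11b stood at the 97.9th percentile in DN3 and at the 93.3rd and 93.4th in the lung groups. Zbtb16 reached only the 22.6th percentile in ZsGreen-positive and the 28.8th in ZsGreen-negative ILC2, whereas the other 6 factors stood at the 92.3rd or above in both lung groups.

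Between the lung groups, none of the 7 factors was called, while 4.6% of the 13771 genes tested were, 2.32% higher and 2.29% lower in ZsGreen-positive ILC2. DESeq2 and limma voom also called 0 of the 7. At an unadjusted edgeR p under 0.05 there were 2 of the 7, Ets1 (0.0325) and Nfil3 (0.0446), beside 16.9% of all genes tested. The estimates were below 0 for 6 of the 7, with a median log2 fold change of -0.19, beside -0.01 over all genes tested.

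Ets1 was the only factor whose lung libraries did not overlap, which held for 10.2% of all genes tested: each of the ZsGreen-positive libraries was under the lowest ZsGreen-negative library. Its log2 fold change in ZsGreen-positive against ZsGreen-negative ILC2 was -0.21 ± 0.09 (95% interval -0.39 to -0.02, edgeR BH-adjusted p = 0.231). Within the 2024 batch the ZsGreen-positive minus ZsGreen-negative difference in mean log2 level was -0.17 (2 against 4 libraries), and within the 2025 batch, with 1 library of each kind, it was -0.29. Nfil3 had a log2 fold change of -0.19 ± 0.09 (95% interval -0.38 to -0.01, edgeR BH-adjusted p = 0.276), with -0.26 within the 2024 batch and -0.00177 within the 2025 batch.

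For Gata3 the log2 fold change in ZsGreen-positive against ZsGreen-negative ILC2 was -0.12 ± 0.10, with a 95% interval of -0.32 to 0.08. For Bcl11b it was -0.07 ± 0.09 (interval -0.25 to 0.12), and for Gfi1 0.02 ± 0.09 (interval -0.17 to 0.21). These intervals leave room for no change and, for these 3 genes, for a change of at most 1.25-fold. Rora at -0.20 ± 0.13 (interval -0.47 to 0.08) and Zbtb16 at -0.55 ± 0.28 (interval -1.13 to 0.04) were bounded less tightly, since their libraries varied more: the coefficient of variation was 18.5% and 17.6% for Rora and 35.7% and 32.7% for Zbtb16 in ZsGreen-positive and ZsGreen-negative ILC2. The sign was the same in both batches for 6 of the factors, while Gfi1 gave 0.08 within the 2024 batch and -0.12 within the 2025 batch. The size for Zbtb16 rested on single libraries: it was -0.24 within the 2024 batch and -0.98 in the 1 pair of the 2025 batch. Its log2 fold change was -0.93 without ZsGreen-positive library 2, -0.26 without ZsGreen-positive library 3 and -0.26 without ZsGreen-negative library 5, and -0.93 to -0.26 over all single lung libraries left out.

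**Figure D4:**
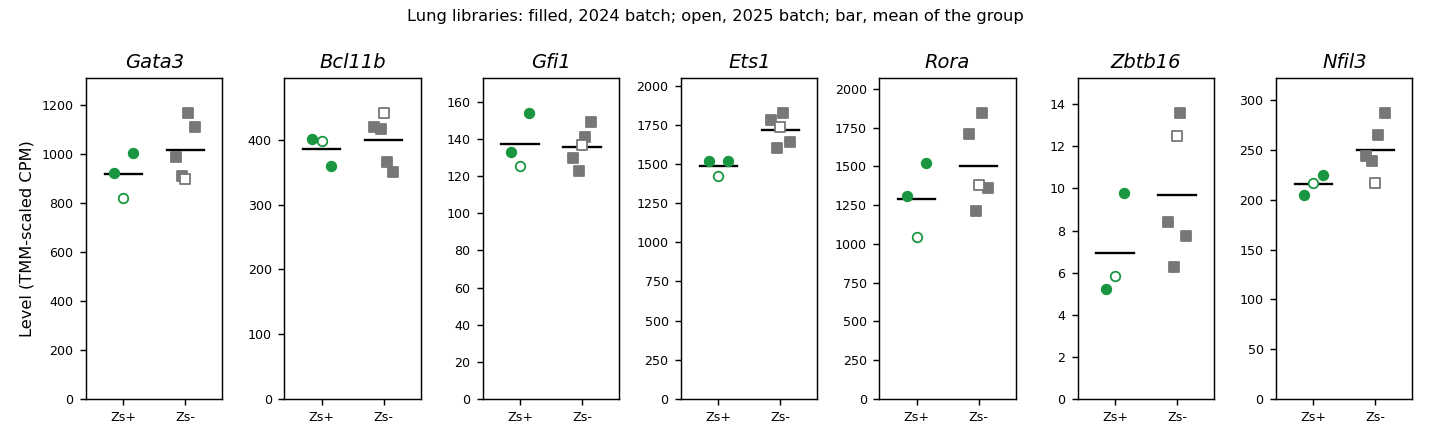
Level of each factor in the 8 lung libraries, in TMM-scaled CPM on axes that start at 0, with ZsGreen-positive (Zs+) left of ZsGreen-negative (Zs-) libraries, filled for the 2024 batch and open for the 2025 batch, and the group mean as a bar. Only for Ets1 do all ZsGreen-positive libraries (1422 to 1522 CPM) lie under all ZsGreen-negative libraries (1605 to 1828 CPM).

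Lists of markers of other cell types also held genes called between the ZsGreen groups. The summed level of 32 markers of lung structural cells was 1424 to 3410 CPM in ZsGreen-positive and 599 to 1663 CPM in ZsGreen-negative libraries, all 32 being detected in both. Of the 30 tested, 4 were called higher in ZsGreen-positive ILC2 and 0 lower, beside 2.32% and 2.29% of all genes tested. Pdgfrb and Cdh1, among these 4, were also higher in DN3 (62.3 and 32.3 CPM) than in either lung group, so they do not mark lung cells alone. The source of these transcripts was not tested. Markers of gamma-delta and NKT cells numbered 10 and include Zbtb7b and Sox13, named or counted elsewhere here. Their summed level was 291 to 317 CPM in ZsGreen-positive and 205 to 236 CPM in ZsGreen-negative libraries. In DN3 libraries it was 1138 to 1214 CPM, so the list does not mark gamma-delta and NKT cells alone. Of the 7 tested between the lung groups, 4 were called higher (Scart1, Trgc4, Trdc and Trgc2) and 0 lower. The shares over all genes tested were 2.32% and 2.29%. Sox13 (0.66 ± 0.27), Trgc1 (-0.43 ± 0.18) and Zbtb7b (-0.08 ± 0.09) were not called. With a score of the structural markers as a term, 0 of the 7 factors were called, and Ets1 stood at -0.26 (edgeR BH-adjusted p = 0.757). That score was mostly higher in ZsGreen-positive libraries, so the fit can hardly separate score from group. Over all genes it called only 21 higher and 50 lower, against 319 and 315 without the score. The absence of factor calls under this term therefore carries little weight. The part of the gamma-delta and NKT markers in the lung values was not tested.

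Sequence is shown for the factor that was high in DN3 and for 2 of those nearly absent there, the 250 bases before the annotated start in RefSeq (GRCm38.p6), 5′ to 3′ on the gene's own strand. Capitals mark a match, on either strand, to any of 8 short motifs: the GATA factor motif AGATAA, its common variant TGATAA, the ETS family core CCGGAA, the half-site AGGTCA of ROR and other nuclear receptors, the GFI1 core AAATCA, the NFIL3 element TTANGTAA, the E-box CAGGTG of E proteins, and the motif GTGGGAA of RBPJ, the Notch effector. Bcl11b lies at chr12:108003415-108003664, minus strand, Rora at chr9:68653536-68653785, plus strand, and Nfil3 at chr13:52981040-52981289, minus strand.
Bcl11b: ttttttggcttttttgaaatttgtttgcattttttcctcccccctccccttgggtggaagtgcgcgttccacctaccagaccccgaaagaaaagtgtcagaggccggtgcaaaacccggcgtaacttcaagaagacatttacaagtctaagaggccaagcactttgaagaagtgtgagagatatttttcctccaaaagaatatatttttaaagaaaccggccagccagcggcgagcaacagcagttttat
Rora: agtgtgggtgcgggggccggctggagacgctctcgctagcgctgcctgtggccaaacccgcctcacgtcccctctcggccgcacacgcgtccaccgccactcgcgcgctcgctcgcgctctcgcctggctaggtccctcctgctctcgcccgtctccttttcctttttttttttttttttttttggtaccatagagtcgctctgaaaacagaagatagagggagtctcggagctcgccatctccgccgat
Nfil3: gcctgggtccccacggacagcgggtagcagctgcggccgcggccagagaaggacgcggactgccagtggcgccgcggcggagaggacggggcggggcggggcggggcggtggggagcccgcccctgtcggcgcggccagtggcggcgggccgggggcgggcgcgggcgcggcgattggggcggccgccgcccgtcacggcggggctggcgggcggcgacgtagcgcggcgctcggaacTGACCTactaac

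The 3 windows differed in base composition. Nfil3 was 81.6% G and C with 43 CG pairs, Rora 61.2% with 26, and Bcl11b 44.8% with 9, beside medians of 52.4% and 6 pairs over 32851 promoter windows. The single match among them was AGGTCA on the reverse strand of Nfil3, 12 to 7 bases before the start, a motif found in 14.0% of all windows. The windows of Gata3 and of 1 of the 2 listed starts of Gfi1 held 1 match each, to CCGGAA (12% of windows) and to CAGGTG (17.2% of windows). Of the 7 factors, 5 were matched in the promoter table, all but Ets1 and Zbtb16. A match describes letters only, no match says that these letters are not in this window, and gene counts do not tell which start was used.

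Other factors of the 2 lineages put the members in context. Of 16 further ILC factors, 14 were tested. In DN3 against ZsGreen-positive ILC2, 0 were called higher and 13 lower, with a median log2 fold change of -3.51, and against ZsGreen-negative ILC2 all 14 were lower, with a median of -3.81. Over all genes tested, 40.3% and 41.2% were called lower in these comparisons. Id2, the inhibitor of E proteins that all ILC share, averaged 10.3 ± 0.39 CPM in DN3, 604 ± 93.5 CPM in ZsGreen-positive and 641 ± 93.6 CPM in ZsGreen-negative ILC2. Bhlhe40, a helix-loop-helix repressor, averaged 8.96 ± 0.59, 2243 ± 63.8 and 2146 ± 179 CPM in the same groups, a deeper drop in DN3 (-7.97 ± 0.14 against ZsGreen-positive ILC2) than that of Gata3. Ahr, the aryl hydrocarbon receptor, was the one tested ILC factor not called in DN3 against ZsGreen-positive ILC2 (-0.22 ± 0.12, edgeR BH-adjusted p = 0.110).

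Of 16 further T cell factors, all were tested in DN3, and 12 were called higher and 3 lower against either lung group, with median log2 fold changes of 1.56 against ZsGreen-positive and 2.51 against ZsGreen-negative ILC2. Over all genes tested, 34.8% and 35.5% were called higher in these comparisons, and 40.3% and 41.2% lower. Tcf7, which makes the Notch-induced factor TCF1, averaged 1874 ± 59.8 CPM in DN3, 42.3 ± 9.05 CPM in ZsGreen-positive and 33.1 ± 2.47 CPM in ZsGreen-negative ILC2. Its log2 fold change was 5.46 ± 0.14 in DN3 against ZsGreen-positive ILC2, far more than the 0.97 of Bcl11b. Myb, a progenitor factor, rose by 7.11 ± 0.19 in the same comparison and Notch1, the receptor that starts the T cell programme, by 3.95 ± 0.13. The 3 factors called lower in DN3 included Hes1, at -0.36 ± 0.09 against ZsGreen-positive and -1.15 ± 0.09 against ZsGreen-negative ILC2. Ikzf1 was another, at -0.45 ± 0.09 and -0.39 ± 0.08.

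Between the lung groups, 3 of the 14 tested ILC factors were called, beside 4.6% of all genes tested. Irf4 (0.82 ± 0.10, edgeR BH-adjusted p = 4.60e-05) and Zeb2 (0.58 ± 0.09, edgeR BH-adjusted p = 0.000785) were higher in ZsGreen-positive ILC2, and Ikzf3, which makes Aiolos, was lower (-0.57 ± 0.12, edgeR BH-adjusted p = 0.0130). Irf4 averaged 388 ± 24.3 CPM in ZsGreen-positive and 223 ± 28.4 CPM in ZsGreen-negative ILC2. Of the 14 tested T cell factors, 2 were called, both lower in ZsGreen-positive ILC2, where 2.29% of all genes tested were called lower. They were Hes1, a Notch target (-0.81 ± 0.09, edgeR BH-adjusted p = 2.17e-05), and Lef1, a relative of TCF1 (-0.90 ± 0.12, edgeR BH-adjusted p = 0.000272). The medians of both lists lay near 0, at -0.06 for the ILC factors and 0.12 for the T cell factors.

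**Figure D5:**
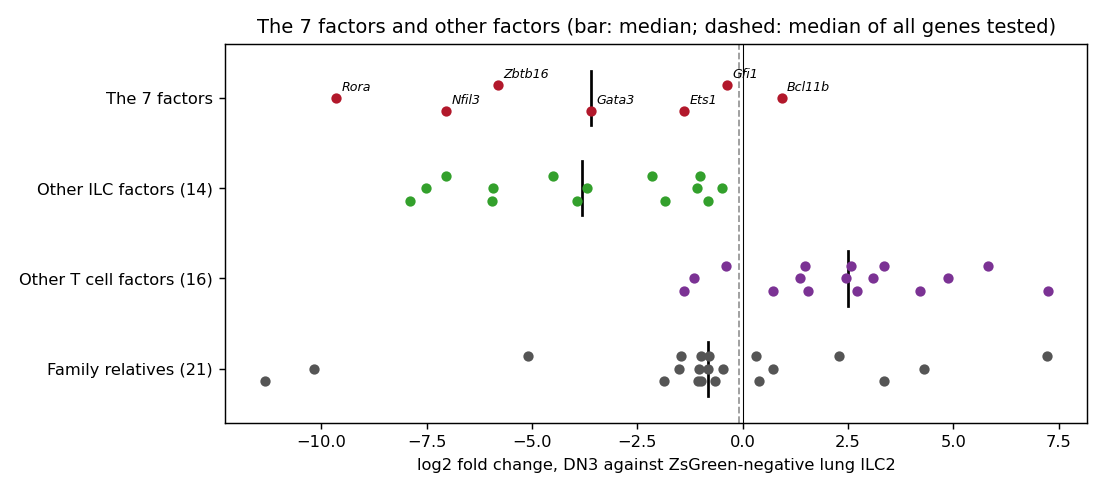
Log2 fold change in DN3 against ZsGreen-negative lung ILC2 for the 7 factors (named), 14 other ILC factors, 16 other T cell factors and 21 family relatives, with a point per gene, the list median as a black bar and the median of all genes tested (-0.10) as a dashed line. The 14 other ILC factors all lie below 0 with a median of -3.81, and the T cell factors have a median of 2.51.

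Family relatives of the members took both directions. Of 21 tested, 6 were called higher and 14 lower in DN3 against ZsGreen-positive ILC2, and 6 higher and 13 lower against ZsGreen-negative ILC2, with medians of -0.71 and -0.81. Calls in either direction took in 75.1% and 76.7% of all genes tested. Some of these relatives also stand in a list above. Hlf, a leucine zipper factor that binds the same DNA element as NFIL3, averaged 0.332 ± 0.20 CPM in DN3, 825 ± 23.2 CPM in ZsGreen-positive and 876 ± 87.3 CPM in ZsGreen-negative ILC2. Zbtb7b, a BTB zinc finger relative of Zbtb16 known for CD4 T cell fate, had 2 counts over all DN3 libraries and averaged 106 ± 10.6 CPM in ZsGreen-positive and 111 ± 10.2 CPM in ZsGreen-negative ILC2. Among ETS factors, Fli1 was lower in DN3 like Ets1 (-1.76 ± 0.10 against ZsGreen-positive ILC2), while Erg was higher (3.48 ± 0.26). Between the lung groups Ets2 was lower (-0.52 ± 0.09, edgeR BH-adjusted p = 0.00151) and Elf1 higher (0.31 ± 0.09, edgeR BH-adjusted p = 0.0488) in ZsGreen-positive ILC2, so the ETS family had a called member in each direction beside the uncalled Ets1.

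Genes known to need GATA3 or RORα in ILC2 were read next to their factors. Of 13 tested of 14 listed, 12 were lower in DN3 against each lung group, with medians of -7.63 against ZsGreen-positive and -8.60 against ZsGreen-negative ILC2. Over all genes tested, 40.3% and 41.2% were called lower. The medians stayed the same with the 5 genes of at most 3 counts over all DN3 libraries put at that floor. This had to be so, because the 5 genes lie below both medians at the floor too. Il2ra, the interleukin 2 receptor alpha chain that DN3 cells also carry, was instead higher against ZsGreen-positive ILC2 (0.44 ± 0.11) and not called against ZsGreen-negative ILC2 (0.20 ± 0.10, edgeR BH-adjusted p = 0.0616). Arg1, arginase, averaged 0.325 ± 0.09 CPM in DN3, 948 ± 72.6 CPM in ZsGreen-positive and 816 ± 76.2 CPM in ZsGreen-negative ILC2. Between the lung groups, with Gata3 and Rora uncalled, 3 of these 13 genes were called, beside 4.6% of all genes tested. Klrg1, an inhibitory receptor, averaged 284 ± 7.62 CPM in ZsGreen-positive and 127 ± 18.0 CPM in ZsGreen-negative ILC2 (log2 fold change 1.2 ± 0.09, edgeR BH-adjusted p = 3.04e-07). Il13 was also higher (0.79 ± 0.12, edgeR BH-adjusted p = 0.000750), and Icos, a costimulatory receptor, was lower at 431 ± 36.3 CPM in ZsGreen-positive against 844 ± 127 CPM in ZsGreen-negative ILC2 (-0.96 ± 0.11, edgeR BH-adjusted p = 6.28e-05).

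A list of natural killer and ILC type genes that BCL11B holds down in T cell precursors had 5 of its 8 genes tested, apart from Zbtb16 and Nfil3. In DN3 1 was higher and 4 were lower against ZsGreen-positive ILC2 (median -2.95), and 1 was higher and 3 were lower against ZsGreen-negative ILC2 (median -2.36). Over all genes tested, 40.3% and 41.2% were called lower, and 5 genes are few for a median. The higher one was Cd244a (3.43 ± 0.56 and 3.29 ± 0.48), at only 3.56 ± 1.05 CPM in DN3. Fcer1g was not called against ZsGreen-negative ILC2 (-1.01 ± 0.63). Both medians are the value of Tyrobp, which was low throughout. It averaged 0.398 ± 0.26 CPM in DN3, 3.18 ± 0.25 CPM in ZsGreen-positive and 2.21 ± 0.82 CPM in ZsGreen-negative ILC2. Fcer1g averaged 0.659 ± 0.22, 2.28 ± 1.57 and 1.43 ± 0.99 CPM in the same groups. Id2, called lower in both comparisons, is also counted among the ILC factors above. Il2rb, the interleukin 2 receptor beta chain, averaged 0.370 ± 0.24 CPM in DN3, 452 ± 50.3 CPM in ZsGreen-positive and 450.5 ± 45.8 CPM in ZsGreen-negative ILC2.

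Over all 11 libraries and 9531 genes, the genes whose pattern lay nearest to a factor were taken by the root mean square difference of centred log2(CPM + 1) values. Nearest to Gata3 was Nfkb1, which makes an NF-kappa-B subunit (difference 0.0741), at 145 ± 0.94 CPM in DN3, 1671 ± 251 CPM in ZsGreen-positive and 1906 ± 164 CPM in ZsGreen-negative ILC2. Nearest to Rora was Hlf (0.237), then Epas1 (0.243), which makes the hypoxia factor HIF2α. Nearest to Ets1 was Ddx5 (0.0566), to Bcl11b Dhodh (0.0682), to Gfi1 Dlg1 (0.0724), to Nfil3 Cpeb2 (0.172) and to Zbtb16 Vdr (0.260), which makes the vitamin D receptor. The points share libraries and depth, and mostly separate thymus from lung, so these figures are a description.

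Some counts could include reads of overlapping genes, because the use of strand in counting is not given in the sources used here. In the annotation at hand, 3 genes overlap Gata3 and 1 each overlap Gfi1, Ets1 and Rora, and their own counts came to at most 3.46% of those of Gata3, 6.31% of Gfi1, 0.93% of Ets1 and 1.55% of Rora in any group.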

How the data were processed

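Bulk RNA sequencing was done on sorted cells, with RNA isolated by a PicoPure kit and a Watchmaker Genomics mRNA library kit, per the labels' protocols. The authors deposited whole-number counts per gene in 2 tables, which held identical lung counts. GRCm39 and DESeq2 are named in the submitters' processing notes, and the sources used here name no aligner, counting program or strand setting. Groups follow the labels. Since these do not tie replicates to separate animals, a p-value reflects only how far libraries spread, which may be technical. Over 16 replicate pairs, chi-square divided by its degrees of freedom was 1.72 to 13.4, above sampling noise.

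Counts were tested with edgeR 4.0.16 in R 4.3.3 (quasi-likelihood F test, TMM scaling, filterByExpr with a minimum count of 10, BH adjustment over all genes, threshold 0.05). For ZsGreen-positive against ZsGreen-negative ILC2 the 8 lung libraries were fitted with a batch term, and the DN3 comparisons used all 11 libraries without one. On simulated data the fits recovered 70.8%, 66% and 67.4% of genes changed by 1 log2 unit in the lung, DN3 against ZsGreen-positive and DN3 against ZsGreen-negative comparisons (13487, 14429 and 14469 genes). Of the calls, 6.32%, 5.92% and 7.14% were false, somewhat above the threshold of 0.05. Changes under 1 log2 unit were not simulated. Alternatives used other scalings, no filter, DESeq2 1.42.0, limma 3.58.1 voom, fewer libraries, a replicate block or a structural marker score. Precision is limited by total counts of 4495260 to 17627469 per library.

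Levels per kilobase use exon lengths from the GENCODE annotation of GRCm38, which matched 90.7% of entries, and no coordinates of that build were joined to the counts. Promoter windows come from RefSeq (GRCm38.p6). The 7 factors, their sides, the motifs and all gene lists were chosen with earlier results of these data known. Named genes were the 7 factors, the nearest genes by pattern among those with at least 10 CPM in a group, and from each list up to 4 called genes of smallest p and up to 2 uncalled genes of highest level. Some markers named beside the labels stand outside this rule.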

Additional observations from a re-analysis of the deposited data

How the results depend on the processing

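In each of the 18 alternatives run per comparison, 0 of the 7 factors were called between the lung groups and all 7 were called in both DN3 comparisons, with the direction given above. Lung signs turned for Bcl11b with the structural score as a term (0.000729, edgeR BH-adjusted p = 0.99954) and for Gfi1 without ZsGreen-positive library 2 (-0.0701) or ZsGreen-negative library 2 (-0.01), in a range of -0.0701 to 0.0861 over single libraries left out. The count of lung genes called, 319 higher and 315 lower in ZsGreen-positive ILC2, was less stable: 621 higher without a filter on low counts, 145 and 153 in the 2024 batch alone, and 21 and 50 with the structural score. Leaving out 1 lung library gave 148 to 471 higher and 147 to 343 lower. Dropping ZsGreen-positive library 2 gave 149 and 172, dropping library 3 of that group 148 and 154, and dropping library 5 of the ZsGreen-negative group 149 and 147. The cause was not tested. With the replicate number as a block in place of batch the counts were 130 and 109 and no call of a factor changed, but same-numbered libraries did not deviate together (correlations -0.138 to 0.078), so the numbers do not pair the samples. Upper-quartile scaling moved the median log2 fold change of all genes in DN3 against ZsGreen-negative ILC2 to 0.01, against -0.10 with TMM. The lowest adjusted p of Ets1 between the lung groups over the alternatives was 0.0900 and the highest 0.757. The depth limits Zbtb16 in DN3 most, at 4 counts in all.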

Other observations

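Within the ZsGreen-negative group, none of the 7 factors had a library standing apart by Dixon's test at the 95% level, the widest gap being 0.321 of the range, for Nfil3, against a critical value of 0.710 for 5 libraries. Percentiles of size give another view of the DN3 difference: among all genes tested, the absolute log2 fold change of Rora in DN3 against ZsGreen-negative ILC2 was at the 98.9th percentile, that of Nfil3 at the 95.6th, that of Zbtb16 at the 92.9th and that of Gata3 at the 86.1st, while Gfi1 was at the 23.0th. Between the lung groups, Zbtb16 reached the 88.0th percentile without being called.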
